A study of Caenorhabditis elegans with 2 samples.

Results

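Basal transcription machinery and Mediator genes were taken by name, as the protein-coding genes of Ensembl release 115 (WBcel235, the same assembly as ce11) whose symbols begin with gtf-, taf-, mdt-, rpb- or rpc- followed by a number. The group was selected on earlier results of these data, namely the presence of CEH-48 summits in promoter windows, so counts of such summits are given as a description with no test. It has 62 of 19973 protein-coding genes: 10 gtf, 17 taf, 20 mdt, 11 rpb and 4 rpc genes. All 62 symbols were also found in the RefSeq annotation, whose product names do not place every mdt gene in Mediator. RefSeq names the guanine nucleotide exchange factor MSS4 for mdt-9, a coiled-coil protein for mdt-28, a glutamine/asparagine-rich protein for mdt-30 and a TFIIS N-terminal domain protein for mdt-26. A product name that does not mention Mediator does not show that the gene is outside it, and these genes are kept here by their symbols.

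The data are chromatin immunoprecipitation with sequencing (ChIP-seq) of CEH-48, a homeodomain protein of the ONECUT family made across the nervous system of Caenorhabditis elegans. There is 1 group of 2 biological replicates, both whole late embryos of mixed sex, synchronized by egg bleaching and collected 3.5 hours later, from strain OP631 with genotype unc-119(tm4063) III and wgIs631, whose transgene makes CEH-48 with a C-terminal GFP-FLAG tag. No untagged strain or other condition is analysed here, and whole embryos do not show which cells carried a region. The IDR list, the authors' set thresholded on agreement between replicates, held 1840 peaks with signals from 85.2 to 1044. Of these, 1737 had a region within 100 bp in both replicate lists, so a listed peak was not always found in each replicate. The pooled list, of which the IDR peaks are a part, held 30000 regions that include background, and the replicate lists held 28372 and 30000. Signal is the value the authors' peak caller gave each region, on a scale the sources used here do not give, so it is compared only within a list.

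Transcription of protein-coding genes starts when general transcription factors (the gtf genes) and TFIID, built from the TATA-binding protein and its associated factors (the taf genes), place RNA polymerase II (the rpb genes) at a promoter. Mediator (the mdt genes) links that complex to regulators bound elsewhere. RNA polymerase III (the rpc genes) makes tRNAs and other short RNAs. These proteins are used in nearly all cells, neurons included. Many worm transcripts are trans-spliced to a short leader, so an annotated 5′ end can lie downstream of the place where transcription begins.

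To show what lay at the strongest summits, the 100 bases around each are printed for the 8 members with the highest IDR signal, leaving out those on a chromosome not printed here. Each is read 5′ to 3′ on the strand of the gene from the RefSeq sequence of WBcel235, with any copy of ATCGAT in capitals. ATCGAT, a sequence known to be bound by homeodomain proteins of the cut class, is its own reverse complement and so was searched on both strands at once. The windows are chrIII:2597128-2597227 (plus strand) for mdt-19, chrIII:10120234-10120333 (minus) for gtf-2H3, chrV:18993663-18993762 (plus) for gtf-2F2, chrII:9669138-9669237 (plus) for taf-8, chrIV:13386206-13386305 (plus) for mdt-9, chrV:7060533-7060632 (minus) for mdt-6, chrX:4254937-4255036 (plus) for taf-11.1 and chrIV:3694788-3694887 (minus) for taf-6.2.
mdt-19: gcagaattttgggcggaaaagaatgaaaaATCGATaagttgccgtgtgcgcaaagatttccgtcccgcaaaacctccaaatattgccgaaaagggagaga
gtf-2H3: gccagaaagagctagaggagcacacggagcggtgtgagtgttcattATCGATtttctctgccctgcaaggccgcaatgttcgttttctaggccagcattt
gtf-2F2: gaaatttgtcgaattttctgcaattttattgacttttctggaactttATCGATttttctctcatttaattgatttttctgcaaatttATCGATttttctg
taf-8: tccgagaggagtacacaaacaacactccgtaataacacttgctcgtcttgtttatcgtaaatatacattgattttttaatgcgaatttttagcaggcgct
mdt-9: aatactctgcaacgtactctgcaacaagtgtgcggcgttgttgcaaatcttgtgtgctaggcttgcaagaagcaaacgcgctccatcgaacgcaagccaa
mdt-6: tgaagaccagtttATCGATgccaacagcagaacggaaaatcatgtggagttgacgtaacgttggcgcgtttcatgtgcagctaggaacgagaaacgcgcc
taf-11.1: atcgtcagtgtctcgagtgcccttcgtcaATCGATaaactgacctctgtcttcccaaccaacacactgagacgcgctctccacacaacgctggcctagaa
taf-6.2: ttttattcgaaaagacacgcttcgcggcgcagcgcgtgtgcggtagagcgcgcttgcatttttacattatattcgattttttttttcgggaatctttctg

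Of these 8 sequences, 5 held the core: mdt-19, gtf-2H3, mdt-6 and taf-11.1 had 1 copy each and gtf-2F2 had 2. The taf-8, mdt-9 and taf-6.2 sequences had none. The remaining members with an IDR summit are described by their counts of the core.

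CEH-48 IDR summits lay in the promoter window of 14 of the 62 genes (22.6%, 95% exact binomial interval 12.9 to 35%). The window began 1000 bp before the annotated 5′ end and ended 200 bp after it. Over all protein-coding genes the share was 6.29%. The 14 were 4 gtf, 5 taf and 5 mdt genes, and no gene of either RNA polymerase class was among them. The share was 40% for gtf genes (interval 12.2 to 73.8%), 29.4% for taf genes (10.3 to 56%) and 25% for mdt genes (8.66 to 49.1%). For the 11 rpb genes a count of 0 allows up to 28.5%, and for the 4 rpc genes up to 60.2%. The intervals cover counting of genes only, they overlap between classes, and differences between classes were not tested.

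**Figure D1:**
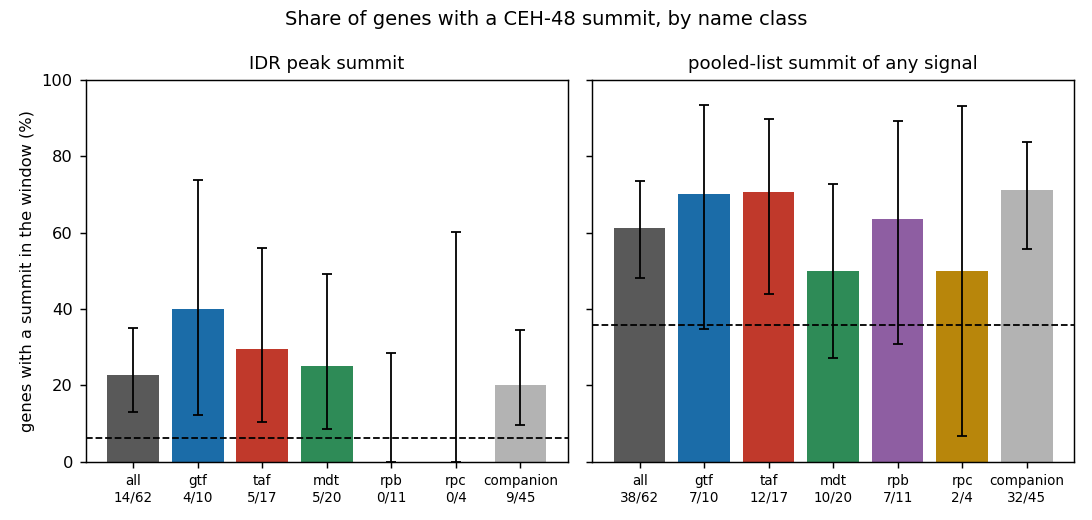
Percent of genes with a CEH-48 summit in the promoter window, by name class, for IDR peaks (left) and for pooled-list regions of any signal (right). Bars are shares, error bars 95% exact binomial intervals, numbers under the bars the genes with a summit over all genes, and dashed lines the shares over all protein-coding genes (6.29% and 35.7%). The "companion" bar is 45 further genes of the same or related machineries. With IDR peaks the rpb and rpc classes are at 0.

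The replicates were also counted on their own. From the 1840 regions of highest signal in its own list, replicate 1 had a summit in the window of 12 of the 62 genes (19.4%, against 5.71% of all genes) and replicate 2 of 15 (24.2%, against 6.33%). Of the 14 genes with an IDR summit, 11 also had one in the top regions of replicate 1 and all 14 in those of replicate 2. Most genes with an IDR summit did so, 968 of all 1256 in replicate 1 and 1173 in replicate 2. Replicate 1 alone added mdt-8 and replicate 2 alone added rpb-11.

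Among the general transcription factors, the genes with IDR summits encode subunits of TFIIH, TFIIE and TFIIF. TFIIH opens the DNA at the start site and also serves in DNA repair, and 2 of its 5 gtf-named genes had a summit. The gtf-2H3 summit had signal 331, with 108 in replicate 1 and 222 in replicate 2, and lay on chromosome III (region 10120158 to 10120393), 136 bp upstream of the 5′ end. It was the second strongest of the 14, and 135 of the 1256 genes with an IDR summit had a higher signal. The gtf-2H4 summit lay 410 bp upstream, on chromosome IV (15453412 to 15453781), with signal 126. Replicate 1 gave it 58.4 at rank 533, and replicate 2 gave 67.3 at rank 1667. For the other TFIIH genes, gtf-2H2C had a pooled region of signal 23.8 only, gtf-2H1 a region in the replicate 1 list only (11.4), and gtf-2H5 none.

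TFIIE and TFIIF each consist of an alpha and a beta subunit, and in both the summit lay at the gene of the smaller, beta-type subunit. At gtf-2E2, for TFIIE beta, the signal was 151, with 29.9 in replicate 1 and 122 in replicate 2. That summit was 57 bp upstream of the 5′ end, on chromosome II (11542494 to 11542620) within an intron of dhgd-1. The partner gene gtf-2E1 had a pooled region of 20.4, near the bottom of that list (rank 29667 of 30000). At gtf-2F2, for TFIIF subunit 2, the signal was 220, with 58.7 in replicate 1 and 161 in replicate 2, and the summit lay 227 bp upstream on chromosome V (18993639 to 18993807). Its partner gtf-2F1 had no region in any list, and its nearest IDR summit (signal 92.9) was 2163 bp upstream. The TFIIA gene gtf-2A2 had a pooled region of 28.2.

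**Figure D2:**
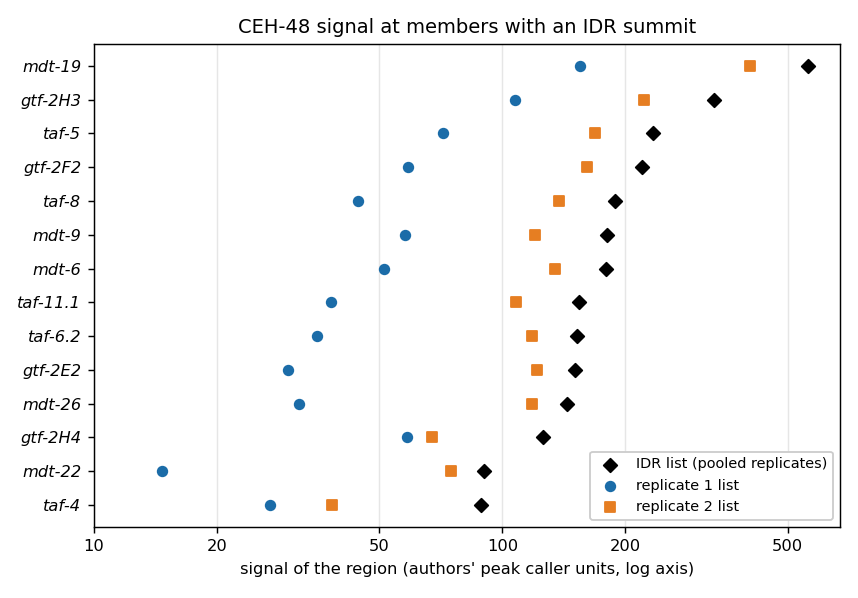
Signal (horizontal log axis, authors' peak caller units) at the IDR summit of each of the 14 genes, in order of IDR signal. Diamonds are the IDR list made from pooled replicates, circles and squares the region within 100 bp in the replicate 1 and replicate 2 lists. Each list has its own scale, so symbols are to be compared between genes and not between lists. In all of them mdt-19 is the highest, and mdt-22 is the lowest in replicate 1 and taf-4 in replicate 2 and the IDR list.

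TFIID genes with IDR summits were taf-5, taf-8, taf-11.1, taf-6.2 and taf-4. The taf-5 gene, for a scaffold subunit, had the highest value of these, 234, with 71.7 in replicate 1 and 168 in replicate 2. Its summit (region 7848880 to 7849030 on chromosome I) lay 95 bp inside the gene, in an untranslated exon, and 39 bp upstream of the divergent gene F30F8.5. The taf-8 summit, 130 bp upstream of the 5′ end, had 189 in the IDR list, 44.4 in replicate 1 and 138 in replicate 2. At taf-11.1 these values were 154, 38.1 and 108, and at taf-6.2 they were 152, 35.3 and 118.5. In both replicates and in the IDR list, taf-5 and taf-8 stood above the other TFIID genes. The weakest was taf-4, with 88.5 in the IDR list and a summit 97 bp upstream (382544 to 382913 on chromosome I). The replicate 1 region there had signal 27 and rank 1942, and the replicate 2 region 38.3 and rank 4477, so neither was among the top 1840 of its list, and a separate replicate 2 summit of 69.9 lay farther upstream in the same window.

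Several TFIID subunits have more than 1 gene in the worm, and the values of the copies were unequal. Of the TAF6 genes, taf-6.2 had the IDR summit given above and taf-6.1 a pooled region of 31.8. Of the 3 TAF11 genes, taf-11.1 had an IDR summit, taf-11.3 a pooled region of 56.7 at rank 3522 and taf-11.2 no region. Neither TAF7 gene had an IDR summit, with a pooled region of 36.6 at taf-7.2 and none at taf-7.1. In yeast and human, TAF proteins pair through histone folds, and the usual partners of the proteins above had lower values or none. The pooled signal was 24.8 at taf-9 (partner of TAF6), 45.3 at taf-12 (partner of TAF4) and 35 at taf-10 (partner of TAF8), and taf-13 (partner of TAF11) had no region. The partners were looked up after the values were seen. Every taf gene with an IDR summit is among the proteins above, so any other taf gene has a lower value by that choice. The genes of the largest subunit, taf-1, and of taf-2 had no pooled region.

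The mdt genes held both the strongest and the second weakest of the 14 summits. The mdt-19 summit had signal 561 and rank 32 of 1840, with 155 at rank 34 in replicate 1 and 405 at rank 33 in replicate 2, on chromosome III from 2597034 to 2597371. It lay 875 bp upstream of mdt-19 but 144 bp upstream of the divergent gene apb-1, which encodes a large subunit of clathrin adaptor complexes. The mdt-6 summit (region 7060398 to 7060767 on chromosome V) was likewise far from its gene, at 959 bp upstream, with 180 in the IDR list, 51.2 in replicate 1 and 135 in replicate 2. It lay 53 bp inside Y57E12AL.1, in an untranslated exon, and 113 bp upstream of Y57E12AL.6. Replicate 1 placed that summit at -1037 bp from the 5′ end of mdt-6, just outside the window, which is why mdt-6 was lost in replicate 1 although the region ranked 649th there.

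The other summits of mdt genes were close to their gene. At mdt-9 the signal was 181, with 57.8 and 120 in replicates 1 and 2, at 124 bp upstream. Its window is crowded, and the same summit lay 68 bp upstream of Y62E10A.23, 165 bp upstream of Y62E10A.20 and 947 bp upstream of lsm-3. At mdt-26, whose protein has a TFIIS N-terminal domain, the summit lay 108 bp inside the gene in a coding exon (chromosome II, 5661230 to 5661433), with 144 in the IDR list, 31.8 in replicate 1 and 118 in replicate 2. At mdt-22 the IDR signal was 90.1, 58 bp upstream on chromosome II (10300973 to 10301342). Replicate 2 gave 74.8 at rank 1431, whereas replicate 1 gave 14.7 at rank 10103, so only replicate 2 had it among its top 1840. Of the 15 mdt genes with no IDR summit, 5 had a pooled region, near the 31.4% of all genes with no IDR summit. The highest were mdt-1.2 (60.8, rank 3114) and mdt-17 (37). They were followed by mdt-15, a tail subunit known in the worm for lipid metabolism (28.3), mdt-4 (26) and mdt-11 (21.6).

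No rpb or rpc gene had an IDR summit. A pooled region lay in the window of 7 of the 11 rpb genes (63.6%, interval 30.8 to 89.1%) and 2 of the 4 rpc genes (50%, 6.76 to 93.2%), against 35.7% of all genes. The intervals are wide, and a difference from that share was not tested. The rpb-11 region, for a core assembly subunit, was the member closest to the IDR limit from below, with pooled signal 82.8 at rank 1924. Replicate 2 ranked it 1736th (65.7) and replicate 1 10263rd (14.6). Just above the limit were taf-4 (88.5) and mdt-22 (90.1), and the next below was mdt-1.2. The other rpb genes with the highest pooled signal were rpb-5 (44.2), rpb-10 (37.6), rpb-7 (37.2) and rpb-4 (34). Of these, rpb-5 and rpb-10 encode subunits shared by all 3 nuclear polymerases. The gene of the second largest Pol II subunit, rpb-2, had no region, and neither did rpb-6 or rpb-12. Among Pol III genes, rpc-11 had 39.3 and rpc-2 24.9, and rpc-1, for the largest subunit, had none.

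**Figure D3:**
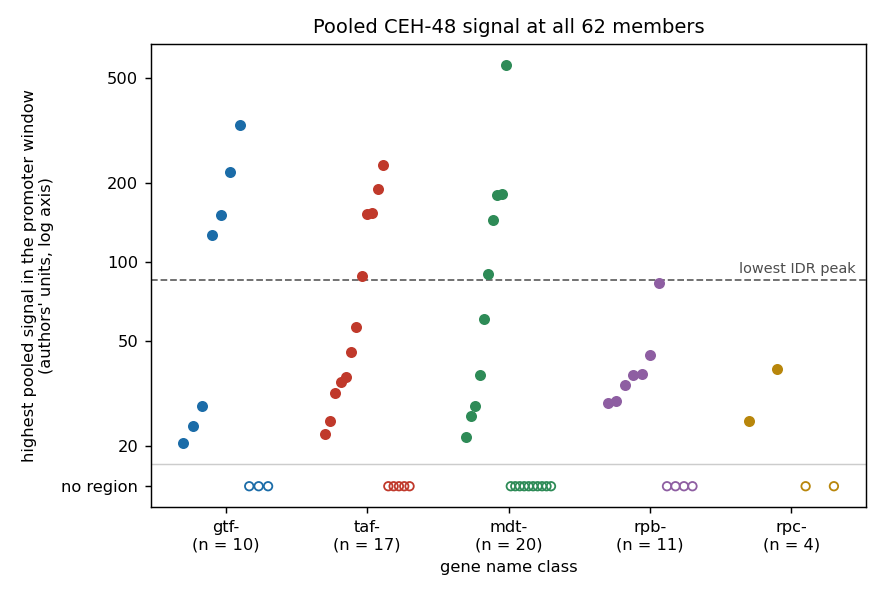
Highest pooled signal in the promoter window of each of the 62 genes (vertical log axis, authors' units), grouped by name class. Filled points are genes with a pooled region, open points genes with none, and the dashed line is the lowest IDR signal, 85.2. The gtf class has a gap from 28.2 to 126, and the highest rpb gene, rpb-11 at 82.8, lies just under the line.

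Counting pooled regions of any signal, 38 of the 62 genes had a summit in the window (61.3%, interval 48.1 to 73.4%), against 35.7% of all protein-coding genes. Of the 48 genes with no IDR summit, 24 had a pooled region (50%), compared with 31.4% of all genes with no IDR summit. The median of their highest pooled signals was 32.9, and over all such genes it was 33. A further 7 of the 48 had a region in 1 replicate's list alone (gtf-2H1, taf-2, mdt-8, mdt-28, mdt-29, rpb-3 and rpc-25), and 17 had none in any list (27.4% of the 62, against 49.6% of all genes). Those of the 17 not named above were mdt-10, mdt-18, mdt-20, mdt-21, mdt-27, mdt-30 and mdt-31. Among the 14 genes with an IDR summit, the signal ran from 88.5 to 561 with a median of 167, while the median of all 1256 genes with an IDR summit was 142. Of the 14, 11 lay above the median of all.

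All 14 summits had a region within 100 bp in both replicate lists, as did 903 of the 943 IDR summits in promoter windows, so this holds for most such summits. Within its own list, 12 of the 14 ranked in the top 1840 in replicate 1 and 13 in replicate 2. A top region of both replicates within 100 bp was found for 12 of the 14, and for 880 of the 1256 genes with an IDR summit. Read numbers are not in the lists, so depth is unknown.

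Summits at these genes lay close to the 5′ end. Of the 14, 11 were within 250 bp (78.6%), compared with 660 of the 1256 genes with an IDR summit (52.5%), and the median distance of the 14 was 127 bp. The exceptions were gtf-2H4, mdt-19 and mdt-6. There were 12 summits upstream of the 5′ end (85.7%, against 91.9% of genes with an IDR summit), and those of taf-5 and mdt-26 were inside the gene. By annotation of protein-coding genes, 9 lay between genes, 2 in introns of an overlapping gene (dhgd-1 at gtf-2E2 and clpp-1 at mdt-22), 2 in untranslated exons and 1 in a coding exon. No summit was within 200 bp of a tRNA gene, against 3.08% of IDR summits in promoter windows.

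**Figure D4:**
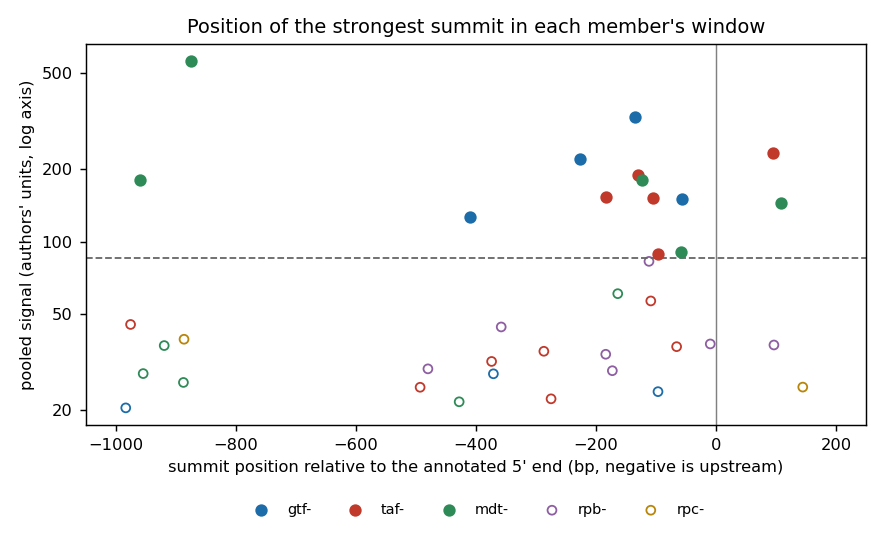
Position of the strongest summit in each window (horizontal axis, bp from the annotated 5′ end, negative upstream) against pooled signal (vertical log axis, authors' units). Filled points are IDR summits, open points regions below the lowest IDR signal (dashed line), and colours are name classes. Of the 14 IDR summits, 11 lie within 250 bp of the 5′ end, while mdt-19 and mdt-6 lie near the upstream edge.

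Sharing of summits between genes was common. Of the 14 summits, 8 lay in the window of at least 1 other gene (57.1%), against 33.7% of IDR summits in promoter windows. These shares are not counted alike, since a summit in several windows can be reached through more genes. Counted by gene, 6 of the 14 had a summit in the window of 1 gene alone, as did 611 of the 1256 genes with an IDR summit. Besides the neighbours named above, gtf-2H3 shared its summit with ham-3 (497 bp upstream), which encodes a chromatin remodelling subunit, mdt-26 with ift-43 (503 bp upstream), a cilium transport gene, taf-6.2 with Y37E11AL.3 (97 bp upstream) and taf-4 with pqn-59 (827 bp upstream). The member's own 5′ end was the nearest for 9 of the 14. Only those 9 remain if each summit is given to the nearest 5′ end (14.5% of the 62, against 4.57% of all genes), and mdt-19, mdt-6, mdt-9, taf-5 and taf-6.2 drop out. With summits in the window of 1 gene alone, the count was 6 (gtf-2E2, gtf-2F2, gtf-2H4, mdt-22, taf-8 and taf-11.1), 9.68% of the 62, against 3.06% of all genes. Which gene of a shared window a summit acts on was not tested.

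Genes without an IDR summit often had another gene close upstream or overlapping their 5′ end. For 24 of these 48 genes (50%), a same-strand protein-coding gene ended within 500 bp upstream of the 5′ end or overlapped it. The same held for 4 of the 14 with a summit (28.6%). Among them were gtf-2E2, where the other gene overlaps, and mdt-9, where Y62E10A.23 leaves no gap. Over all genes the shares were 21% without and 14.4% with an IDR summit. Close spacing of genes that do not overlap is usual in worm operons, where downstream genes share a promoter that lies before the first gene. Operons are not marked in the annotation used here, and their part in these counts was not tested. For 4 of the 24, the gene just upstream had an IDR summit in its own window (16.7%, against 9.58% for all genes so placed). These were eelo-2 before gtf-2E1 (signal 142), wip-1 before mdt-11 (197), Y62F5A.12 before mdt-8 (119) and hach-1 before rpc-2 (193). The mdt-8 summit was also the nearest miss by distance, 1201 bp upstream of the 5′ end, whereas that of mdt-6 was inside the window at 959 bp. Replicate 1 placed a region of signal 39.6 (rank 1003) at -999 bp from mdt-8, just inside. Within 2000 bp of the 5′ end, 3 of the 48 genes had an IDR summit, the others being mdt-4 (1377 bp downstream, signal 86.6) and rpc-11 (1680 bp downstream, 351). The median distance of the 48 genes to an IDR summit was 22812 bp.

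ATCGAT lay in the 100 bp around 9 of the 14 summits (64.3%, interval 35.1 to 87.2%), against 38.3% of the 943 IDR summits in promoter windows. Counting ATCGAT or ATTGAT (either strand), the shares were closer, at 71.4% and 58.9%. At the companion genes described at the end, ATCGAT lay at 2 of 7 summits (28.6%). The centre of the nearest ATCGAT copy was a median of 5 bp from the summit, from 0 to 34 bp. Copies numbered 3 at gtf-2H4, 2 at gtf-2F2, and 1 each at mdt-19, gtf-2H3, taf-5, mdt-6, taf-11.1, gtf-2E2 and taf-4. The 5 summits without it were at taf-8, mdt-9, taf-6.2, mdt-26 and mdt-22, and mdt-26 had a copy 78 bp away. Regions of the pooled list below the IDR limit held it in 3 of 38 at these genes (7.89%) and in 10.4% of all 6501 such regions in promoter windows. In the whole 1201 bp window, 11 of the 14 genes had a copy (78.6%) and 20 of the 48 others did (41.7%). Over all genes the shares were 70.8% with and 32.2% without an IDR summit.

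The gtf-2F2 and gtf-2H4 summits stood out in base composition, at 26% and 28% G and C, where the others ranged from 37 to 53%. At both the summit base is masked as a repeat in the RefSeq sequence, and the gtf-2F2 window held 9 copies of ATCGAT. Masked bases were under 6 of the 14 summits (42.9%), also at gtf-2H3, taf-6.2, mdt-26 and taf-4, compared with 23.5% of IDR summits in promoter windows. The core was present at 4 of these 6 and at 5 of the other 8. Reads from repeats can map to several places, and their part in these signals was not tested.

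Genes of the same machineries with other names were looked at through a companion list of 45 genes. That list also takes in related transcription genes, namely those of elongation, Pol I, TFIIIC and SNAPc. Of the 45, 9 had an IDR summit (20%, interval 9.58 to 34.6%, against 6.29% of all genes). With the 920 strongest peaks the count was 3 (6.67%, against 3.21%), and with summits in the window of 1 gene alone it was 2 (4.44%, against 3.06%), both nearer the share over all genes. The 9 genes carry 7 distinct summits, with a median signal of 110. The Mediator kinase module, a set picked out after the values were seen, had 3 of its 4 genes among them. They were cic-1, for cyclin C (172, with 41.5 in replicate 1 and 133 in replicate 2), its kinase gene cdk-8 (150, with 42.8 and 116) and dpy-22, for the MED12 subunit (86.6, with 25.1 and 61.2). The fourth, let-19, had no pooled region. The cdk-8 summit was shared with tlf-1, for a relative of the TATA-binding protein. Among elongation genes, 5 of 13 had a summit. The kinase gene cdk-9 had 95.1 and the cyclin T genes cit-1.1 and cit-1.2 shared a summit of 92.9, together the parts of the kinase that releases paused polymerase. The others were pafo-1 (117) and rtfo-1 (110), of the PAF1 complex and its partner. The cdk-9 summit was shared with hxk-2 and the rtfo-1 summit with K09G1.1. Within 100 bp of the rtfo-1 summit, replicate 1 had a region of signal 13.45 and replicate 2 one of 96.1. No gene of Pol I (6), of TFIIH under other names (5), or of TFIIIC and SNAPc (10), which serve Pol III and small nuclear RNA genes, had an IDR summit, and with 6.29% of all genes having one, a count of 0 in so few genes shows little. The other companion genes with the highest pooled signal were ttb-1, for TFIIB (82.7), ama-1, for the largest Pol II subunit (82.2), cdk-7 (81.8), cdk-12 (76.1) and snpc-4 (71). The gene of the TATA-binding protein itself, tbp-1, had no pooled region.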

How the data were processed

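The authors' ce11 region lists in narrowPeak format were used. Each gives, per region, a start, an end, a summit offset and a signal value from the authors' peak caller, as deposited. Per the deposited read-me files, regions including background were called for the single replicates and for the pool, with 1 further input file, and the IDR list was derived from these. No source used here names the aligner, the caller or the IDR threshold. The ce10 copies were not used.

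A summit was column 2 plus column 10 of the deposited list, which with 1 added is the position printed. Promoter windows were tied to the outermost annotated 5′ end, and regions of 2 lists were matched when their summits were at most 100 bp apart. Replicate counts used the 1840 regions of highest signal in each list. The labels name an anti-GFP antibody in the description and ceh-48 in the antibody tag. The members and lists were chosen with earlier results of these data known, so no test was run. Of 51 companion symbols, 45 were found in the annotation. Every member with an IDR summit is named, as are up to 5 others per class with the highest pooled signal, and likewise for companion genes. Partner, neighbour and near-miss genes were named after their values were seen. Window counting was tested on simulated data. Python 3.11.15, numpy 2.4.6, pandas 2.3.3, scipy 1.17.1 and matplotlib 3.10.9 were used.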

Additional observations from a re-analysis of the deposited data

How the results depend on the processing

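The count of 14 genes with an IDR summit was 9 when each summit went to the nearest 5′ end within the window, and 6 with summits in the window of 1 gene alone, an alternative chosen after seeing the data. Under the other 7 settings it ran from 11 to 15, including 15 without replicate 1 and 12 without replicate 2, where the top regions of the remaining replicate stand in for the IDR list. The share of the 62 genes ran from 17.7 to 24.2% there, and the share of all genes from 3.21 to 8.53%. The 500 bp window dropped mdt-19, mdt-26 and mdt-6, the 920 strongest peaks dropped gtf-2H4, mdt-22 and taf-4, and requiring a top region of both replicates within 100 bp, also added after seeing the data, dropped mdt-22 and taf-4. The companion count of 9 fell to 3 with those 920 peaks (6.67%, against 3.21% of all genes) and to 2 with summits in 1 window alone (4.44%, against 3.06%), and was 6 to 11 under the others. The median signal of 167 was 154 in the 500 bp window, where fewer genes enter. The pooled count of 38 ran from 27 to 48. No share over all genes is given for those settings, so these counts do not show how the difference from all genes changes. The ATCGAT share of 64.3% ran from 63.6 to 71.4%, with 58.9% of promoter IDR summits beside the 71.4% for ATCGAT or ATTGAT. Depth is unknown, and the absence of a region does not show an absence of binding.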
